A study of Mus musculus with 17 samples.

Results

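The interval between 4 and 8 h of a transcription block was examined in wild-type (WT) heart muscle cells by comparing 3 WT libraries taken at 8 h with 2 WT libraries taken at 4 h. These 5 libraries were picked by their labels from the 17 of the series. Ventricular cardiomyocytes were isolated from 60-day-old mice by Langendorff perfusion (retrograde perfusion of the coronary vessels) with the collagenase mix Liberase TM, let settle, and plated on laminin for 3 h. Medium with actinomycin D at 2 µg/mL was then given, and total RNA was sequenced on the BGI DNBseq platform. The groups set beside this interval were 3 libraries labelled MBNL1 loss-of-function (KO) at 8 h and 3 at 4 h, and 3 WT libraries at 0 h, harvested before the drug. All 4 h and 8 h libraries of either genotype had received actinomycin D, and the series as analysed has no untreated cells kept for the same hours. The labels give neither how the gene was inactivated nor whether replicates came from separate animals, so p-values measure the spread between these samples, which may be technical.

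Actinomycin D binds DNA and stalls RNA polymerases. Once synthesis stops, each messenger RNA disappears at its own rate: transcripts of immediate early genes, cytokines and signalling feedback genes are short-lived, and those of contractile, ribosomal and mitochondrial proteins are long-lived. Decay is started mostly by shortening of the poly(A) tail, and proteins that bind AU-rich letters in the 3′ untranslated region (3′UTR), such as Zfp36 (tristetraprolin), speed it up. A sequencing library shows shares and not amounts. A stable transcript therefore rises in share while unstable ones are lost, and "rose" and "fell" below always mean relative to the other transcripts.

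The 8 h libraries held 17305522, 17482637 and 17459652 gene counts and the 4 h libraries 17297770 and 17290793, and 13229 genes had enough counts to be tested. Levels are given in CPM, the count as a share of the library on a common scale, after TMM scaling, which sets the bulk of genes level between libraries. CPM is not corrected for transcript length, so levels are compared within a gene and never between genes. The cells carried the markers of their label: 12 cardiomyocyte markers summed to 76913 to 83882 CPM at 8 h and 71927 to 77012 CPM at 4 h, with none at 0. Markers of other heart cells differed in level. The 12 tested pericyte and smooth muscle markers, Abcc9 and Des among them, summed to 2250 to 2464 CPM at 8 h. At 4 h they summed to 2230 to 2232 CPM. Endothelial and macrophage markers were present at a low level. Endothelial markers summed to 116 to 128 CPM at 8 h and 178 to 194 CPM at 4 h, and macrophage markers to 28.2 to 36.2 and 55.9 to 61.7 CPM. Mitochondrially encoded genes held 35.8 to 36.9% of counts at 8 h and 38.4 to 39.5% at 4 h. Mbnl1 counts did not separate the genotypes in the way the KO label would have it. Mbnl1 was at 100.0 to 106 CPM in KO and 85.6 to 88.0 CPM in WT libraries at 8 h, and at 99.9 to 105 and 91.3 to 92.9 CPM at 4 h. The labels do not say which part of the gene is lost, so a count over the whole gene checks nothing about the allele, and KO below stands for the libraries labelled KO.

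Some of the letters these decay pathways read are shown first, because transcripts that carry them took different courses. The AU-rich nonamer TTATTTATT (T stands for U of the RNA) was searched on the transcript strand in the 3′UTR of the longest coding transcript of each gene, counting overlapping matches. It was present in 112 of 1238 late-falling transcripts with a 3′UTR (9.05%), in 41 of 1137 late-rising ones (3.61%) and in 876 of 11993 tested genes (7.3%). The median 3′UTR was 1720 bases in late-falling, 374 in late-rising and 1009 in all tested genes, and the part of UTR length in these shares was not tested. The lines give the match in capitals with 10 bases on each side, read from GRCm38 with the GENCODE M21 annotation. Zfp36 (chr7:28376951-28376979, minus strand) fell in both intervals, Nfkbia (chr12:55489608-55489636, minus) levelled off after a fall, Rad54l2 (chr9:106691667-106691695, minus) fell only after 4 h by its calls, and Ankrd1 (chr19:36112509-36112537, minus) rose in both intervals.
Zfp36: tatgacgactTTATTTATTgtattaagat
Nfkbia: ggaccacgttTTATTTATTgtgcttttga
Rad54l2: ttatggacaaTTATTTATTattttcattt
Ankrd1: ttcaccacttTTATTTATTcctacctatt
The 4 windows share the 9 letters and differ around them. A match is a description and no shown binding site.

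Of the 13229 tested genes, 1264 (9.55%) were lower and 1178 (8.90%) higher at 8 h than at 4 h by edgeR's quasi-likelihood test at an adjusted p of 0.05. Late changes were small. The median called fall was -0.35 and the median called rise 0.32 on the log2 scale, and 110 genes fell and 18 rose more than 2-fold. In the early interval (4 h against 0 h) 1671 genes (12.6%) were lower, 747 of them more than 2-fold, and 2105 (15.9%) were higher. The calls rest on both 4 h libraries. Without WT 4 h replicate 1 there were 710 lower and 730 higher genes, and without WT 4 h replicate 2 there were 759 and 823. Of the calls made without these libraries, 1310 of 1440 and 1438 of 1582 were among the calls of all 5 libraries in the same direction, and none was opposite. Late falls numbered 739 with DESeq2, 826 in a fit of the WT groups alone, 778 without a filter on low counts, 737 with an offset for transcript length and GC content, and 9344 when libraries were scaled to ribosomal protein counts.

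Transcripts were then sorted into courses by their calls in the early interval, in the late interval and in the test of late minus early change, which called 570 genes (4.31%), 395 lower (2.99%) and 175 higher (1.32%). Both intervals share the 4 h libraries, so an error in these moves the early and the late change in opposite directions. Levelled off means that the late change was not called and differed from the early one by that test. A slower fall or rise may remain. By these calls 356 genes (2.69% of the tested genes) continued to fall, 99 (0.748%) levelled off after a fall, 8 (0.0605%) fell and then rose, and 74 (0.559%) fell late only. On the other side 561 (4.24%) continued to rise, 190 (1.44%) levelled off after a rise, 134 (1.01%) rose and then fell, and 31 (0.234%) rose late only. Of the rest, 8070 genes were called in neither interval. Others stayed undecided: 1208 early-falling and 1220 early-rising genes were not called late, and their late change could not be told from their early one either. Likewise 700 late-falling and 578 late-rising genes were not called early and had no called difference, so these late calls belong to no course.

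**Figure D1:**
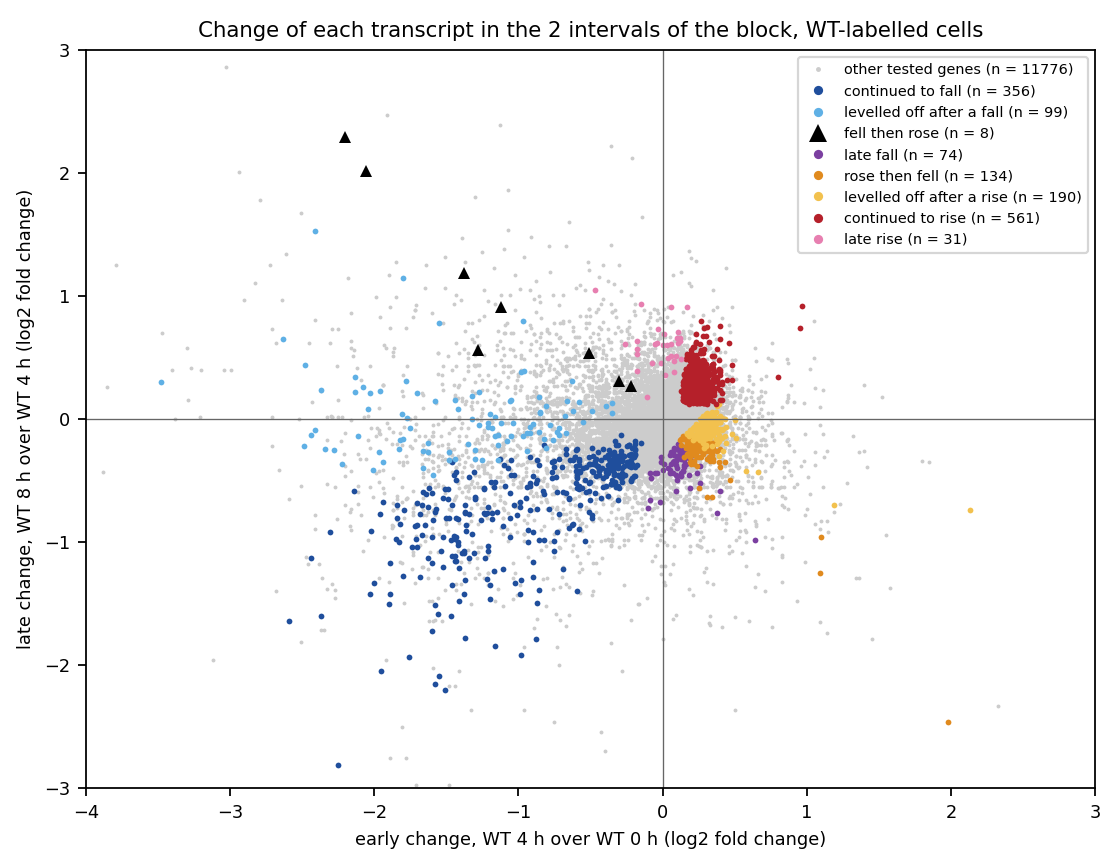
Each point is a tested gene, with its early log2 fold change (WT 4 h over WT 0 h) on the x axis and its late log2 fold change (WT 8 h over WT 4 h) on the y axis; colours mark the 8 courses and grey all other genes, and 12 genes lie outside the axes. The 356 continued falls fill the lower left, the 99 levelled-off falls lie left along the zero line, and the 561 continued rises crowd within a small area at the upper right that empties when libraries are scaled to ribosomal protein counts (3 genes).

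The courses depend on 1 library more than the late calls do. The genes of a course were chosen by calls that rest on both 4 h libraries. The signs that they keep when these libraries are split were therefore nearly fixed in advance. Leaving out WT 4 h replicate 1 gave 144 continued falls, 231 continued rises, 63 rises followed by a fall, 9 late falls, 2 late rises, and 56 and 36 levelled-off falls and rises, and leaving out replicate 2 gave 183, 239, 88, 12, 21, 35 and 47. When 1 of the 4 h libraries was used for the early and the other for the late change, 356 and 356 of the 356 continued falls kept both signs in the 2 ways of doing this, and 172 and 199 kept both calls.

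Endothelial and macrophage markers had the lowest late medians of the lists with at least 5 tested members. Erythroid markers, of which 3 were tested, had a median of -1.0 with 1 called lower. Of 22 endothelial markers 16 fell late and none rose, with a median of -0.68 against -0.04 over all tested genes. All 22 had fallen early, with a median of -1.48. Of 19 tested macrophage and leukocyte markers (20 listed) 12 fell late and none rose, with a median of -0.99, after 16 had fallen early (median -1.21). In RNA from a mixed culture, fewer cells of a type and less RNA per cell cannot be told apart. None of the endothelial or macrophage markers was at 0 in all libraries of a WT group. Of the 6 listed erythroid markers 2 were at 0 in every 8 h library and 1 in every 4 h library.

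Kdr, the main receptor for vascular endothelial growth factor (chr5:75932827-75978458), was at 6.51, 6.4 and 6.21 CPM at 8 h and 12.6 and 12.9 CPM at 4 h, after 46.6, 46.1 and 43.3 CPM at 0 h. The groups did not overlap at either step. With 3 libraries against 2 that is common: 5774 of the tested genes (43.6%) had 8 h libraries all above or all below the 4 h libraries. Its late log2 change was -1.0 ± 0.11 (SE, adjusted p = 3.9e-10) and its early change -1.83, and the late fall was smaller than the early one (difference 0.83, adjusted p = 0.00302). Podxl, a sialomucin of the endothelial surface, was at 7.57, 5.55 and 5.74 CPM at 8 h and 14.6 and 11.8 CPM at 4 h (late log2 change -1.07 ± 0.12, adjusted p = 3.1e-10). Ly6e, a GPI-anchored surface protein, was at 4.2, 4.46 and 4.1 CPM at 8 h against 9.47 and 9.43 CPM at 4 h (-1.15 ± 0.12, adjusted p = 1.1e-10). Ly6c1, another surface protein of this family, fell by a log2 change of -1.13. Adgrf5, an adhesion G protein-coupled receptor (-0.98), Cav1, the coat protein of caveolae (-0.91), Cxcl12, the chemokine that binds Cxcr4 (-0.77), and Cdh5, the cadherin of endothelial junctions (-0.59), followed with all 8 h libraries below all 4 h libraries. Cldn5, a tight junction protein, had the largest called fall of the endothelial list (-1.58) but lay at 0.234 to 0.414 CPM at 8 h and 0.914 and 1.21 CPM at 4 h, and without WT 4 h replicate 1 the call was lost (-1.37, adjusted p = 0.0649).

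Pecam1, the adhesion protein CD31, went another way than most of its list. It had 8.11, 6.57 and 8.72 CPM at 8 h, 9.18 and 9.6 CPM at 4 h, and 25.1 to 27.2 CPM at 0 h. All 8 h libraries of Pecam1 lay below both 4 h libraries. Its late change of -0.27 did not pass the test (adjusted p = 0.119) and was smaller than its early fall of -1.48 (difference 1.21, adjusted p = 1.3e-04). Erg, Fabp4 and Vwf were the other endothelial markers in this course. In the whole list, 13 of 22 late changes were less negative than the early ones by the test of the difference.

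Among macrophage transcripts Lyz2, lysozyme of myeloid cells (chr10:117277331-117282321), was at 5.09, 5.83 and 4.98 CPM at 8 h and 11.4 and 9.43 CPM at 4 h, after 26.8 to 30.3 CPM at 0 h. Its late log2 change was -0.97 ± 0.13 (adjusted p = 9.0e-08). Csf1r, the receptor for colony-stimulating factor, fell late by -1.17 and C1qb, a chain of complement C1q, by -1.09. Fcgr3, an Fc receptor, had the largest called fall (-1.93) at counts near the limit, with 0.0 to 0.296 CPM at 8 h and 0.631 and 0.743 CPM at 4 h. That call was lost without WT 4 h replicate 2 (-1.81, adjusted p = 0.0682) or WT 8 h replicate 2 (-1.35, adjusted p = 0.066). Other non-muscle lists moved less. Of 19 tested fibroblast and matrix markers 14 had fallen early, but only Fbln2 (-0.63) and Sparc fell late by the calls. That was 10.5%, against 9.55% of all tested genes. The late median was -0.07, and 1 fell and 1 rose with the length and GC offset. The call of Fbln2 was lost without WT 4 h replicate 1 (-0.59, adjusted p = 0.202), WT 4 h replicate 2 (-0.66, adjusted p = 0.126) or WT 8 h replicate 2 (-0.39, adjusted p = 0.291). Gsn, the actin-severing protein gelsolin on this list, had 29.9, 26.9 and 25.7 CPM at 8 h and 25.8 and 23.8 CPM at 4 h after 37.6 to 40.3 CPM at 0 h, and levelled off (difference 0.81, adjusted p = 1.6e-04). With an offset for transcript length and GC content its late change of 0.22 was called a rise.

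Ccl4, a chemokine of activated macrophages (chr11:83662584-83664683), had the largest late fall among called genes with a mean log2 CPM of at least 3 and no overlap between 8 h and 4 h libraries, and was the 1 continued fall that went faster late. Its levels were 4.26, 5.6 and 4.45 CPM at 8 h and 14.2 and 11 CPM at 4 h, after 18, 20.5 and 18.7 CPM at 0 h. The late log2 change was -1.40 ± 0.13 (2.64-fold lower, adjusted p = 5.2e-12), against -0.59 early (difference -0.81, adjusted p = 0.0152). Cxcl10, an interferon-induced chemokine, was at 1.42, 1.89 and 1.52 CPM at 8 h and 5.05 and 3.6 CPM at 4 h (late change -1.42). Cxcl10 is on the list of NF-kappaB and cytokine genes and Ccl4 is not. Of the 23 tested genes on that list 6 fell late (26.1%, against 9.55% of all tested genes) and none rose. The median was -0.32, after 16 had fallen early. With the length and GC offset 5 fell and 2 rose. Of 27 interferon-induced and MHC class I genes 6 fell late (22.2%) and none rose (median -0.21).

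Of the 356 genes that continued to fall, 33 fell less late than early by the test of the difference and 1 fell more. Of the 747 genes that had fallen more than 2-fold early, 138 fell late, 5 rose and 604 were not called, and their median change was -0.38 late and -1.52 early. In 99 of these 747 the late change was less negative by the test and in none more. These 747 were chosen by their early change, which shares the 4 h libraries with the late one.

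Immediate early genes, which encode transcription factors induced within minutes of a stimulus such as cell isolation, split between these courses. Of 29 tested, 10 fell late (34.5%, against 9.55% of all tested genes) and none rose (median -0.21). Early, 22 had fallen (median -0.69). Fosb, an AP-1 subunit (chr7:19302696-19310051), was at 8.4, 9.2 and 7.14 CPM at 8 h and 14.3 and 13.1 CPM at 4 h, after 23.5 to 24.0 CPM at 0 h. It lost about the same share in each interval, with log2 changes of -0.73 ± 0.11 late (adjusted p = 3.2e-07) and -0.79 early. Atf3, a stress-induced repressor, had 34.3, 37.1 and 37.6 CPM at 8 h and 49.2 and 47.9 CPM at 4 h (-0.42, adjusted p = 1.6e-05). Nr4a1, an orphan nuclear receptor, fell late by -0.27, and was at -0.22 (adjusted p = 0.0648) without WT 4 h replicate 1. Btg2, an antiproliferative cofactor of deadenylation, fell late by -0.34 and early by -0.75, a slower late fall (difference 0.41, adjusted p = 0.0416).

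Another 6 members levelled off, and Fosl2, Junb and Myc are described here. Fosl2, an AP-1 subunit, had 19.6, 20.1 and 17.7 CPM at 8 h and 22.3 and 21.7 CPM at 4 h, after 51.9 to 60.4 CPM at 0 h. All 8 h libraries of Fosl2 lay below both 4 h libraries. The late change of -0.20 did not pass the test (adjusted p = 0.0856) and was far from the early -1.35 (difference 1.15, adjusted p = 3.0e-07). Junb, another AP-1 subunit, was at 40.9 to 42.4 CPM at 8 h and 41.8 and 44.8 CPM at 4 h, with overlapping libraries, after 74.2 to 75 CPM at 0 h. Myc, the growth-promoting transcription factor, was at 2.9 to 3.22 CPM at 8 h and 2.69 and 3.16 CPM at 4 h after 11.5 to 12.5 CPM at 0 h.

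Socs3, the feedback inhibitor of cytokine receptor signalling (chr11:117966079-117970047), levelled off. It had 17.3, 17 and 17.8 CPM at 8 h and 15.1 and 14.9 CPM at 4 h, after 56.9, 64.4 and 61.6 CPM at 0 h. All 8 h libraries lay slightly above both 4 h libraries. The late change was 0.21 ± 0.09 (95% interval 0.04 to 0.38, adjusted p = 0.0756) against -2.03 early (difference 2.24, adjusted p = 4.9e-18). Gadd45g, a stress sensor induced by cytokines, was at 7.51, 6.8 and 8.14 CPM at 8 h and 7.18 and 5.6 CPM at 4 h after 23.3 to 26.9 CPM at 0 h (late 0.23, adjusted p = 0.258). Nfkbia, the inhibitor of NF-kappaB whose AU-rich window is printed above, was at 3.37, 4.8 and 4.33 CPM at 8 h and 4.99 and 5.43 CPM at 4 h (late -0.32, adjusted p = 0.161; early -1.44). Nfkbia was lower in every 8 h library than in both 4 h libraries. Cish, Dusp5 and Id3 were the other levelled-off members of the 27 feedback genes. Of these 27 genes 6 fell late (22.2%, against 9.55% of all tested genes) and none rose. Under the scaling to ribosomal protein counts Fosl2 (-0.68), Junb (-0.52), Zfp36l1 (-0.57) and Socs3 (-0.26, adjusted p = 0.0192) were called lower late; with RLE factors (0.23) and with the length and GC offset (0.28) Socs3 was called higher.

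**Figure D2:**
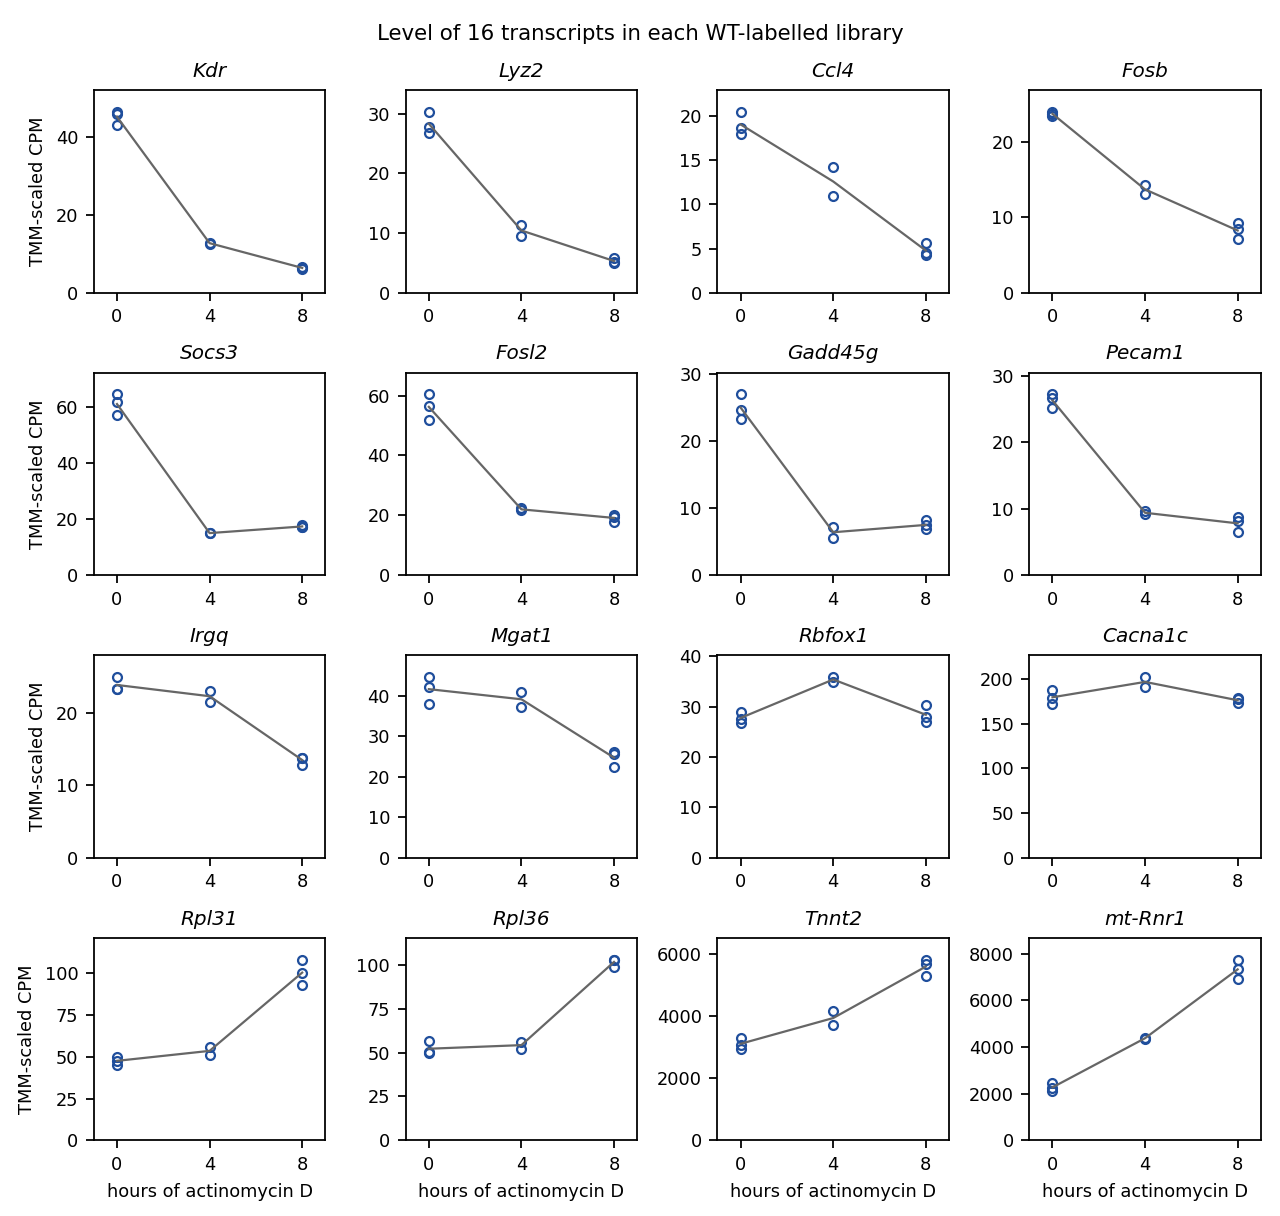
TMM-scaled CPM (y axis, from 0) of 16 transcripts in each WT library at 0, 4 and 8 h of actinomycin D (x axis); circles are libraries (3, 2 and 3) and lines join the group means. Kdr, Lyz2, Ccl4 and Fosb keep falling. Socs3, Fosl2, Gadd45g and Pecam1 change less after 4 h than before. Fosl2 and Pecam1 are still lower in every 8 h library than at 4 h. Irgq and Mgat1 fall after 4 h. Rbfox1 and Cacna1c peak at 4 h (the fall of Cacna1c turns to 0.03 with the length and GC offset). Rpl31, Rpl36, Tnnt2 and mt-Rnr1 are highest at 8 h (with ribosomal protein scaling no rise of Tnnt2 is called).

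Decay factors themselves were followed among 59 genes, of which 13 fell and 2 rose late (median -0.11). These were 22.0 and 3.39%, against 9.55 and 8.90% of all tested genes. With the length and GC offset 3 fell and 2 rose (median -0.04). Zfp36, which recruits the deadenylase to AU-rich transcripts and is itself induced early, had 14.8, 15.7 and 12.9 CPM at 8 h and 21.7 and 20.8 CPM at 4 h, after 39.8 to 42.1 CPM at 0 h. Its late log2 change was -0.55 ± 0.09 (adjusted p = 1.5e-06) and its early change -0.94. Its relative Zfp36l1 was at 16.2, 15.8 and 16.3 CPM at 8 h and 18.5 and 15.9 CPM at 4 h, and levelled off after an early change of -0.73 (difference 0.63, adjusted p = 0.0136). Edc3, a decapping enhancer, had the largest called late fall of the list (-0.62) and Exosc8, an exosome subunit, the larger of the 2 late rises (0.44, and -0.04 with ribosomal protein scaling). Neither call held against every left-out library: Edc3 had an adjusted p of 0.103, 0.111 and 0.122 without WT 4 h replicate 1, WT 4 h replicate 2 and WT 8 h replicate 1, and Exosc8 one of 0.322, 0.069 and 0.0731 without WT 4 h replicate 1, WT 8 h replicate 1 and WT 8 h replicate 3. Of the mitochondrial transfer RNAs mt-Ta, mt-Ti, mt-Tq and mt-Tw levelled off, while mt-Ty (-0.47) and mt-Te (-0.64) were called lower late. The call of mt-Te was lost without either 4 h library or without WT 8 h replicate 1 or 2 (adjusted p 0.0515 to 0.0996), mt-Ti was called higher without WT 4 h replicate 1 (0.52, adjusted p = 0.029), and with ribosomal protein scaling mt-Ta (-0.72) and mt-Tw (-0.57) were called lower. The level of mt-Tw was 3.37, 3.43 and 2.93 CPM at 8 h and 3.33 and 3.6 CPM at 4 h, after 17.2 to 19.7 CPM at 0 h. The labels do not say which RNA the libraries selected, and counts of such short RNAs depend on it.

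A set of 74 transcripts had no called early change, a called late fall and a called difference between the 2. That their share was held for 4 h was not tested. Their early median was 0.11, against 0.02 over all tested genes. Irgq, a GTPase-like protein (chr7:24530689-24538600), was at 13.8, 13.8 and 12.8 CPM at 8 h and 23.0 and 21.5 CPM at 4 h, beside 23.2, 24.9 and 23.3 CPM at 0 h. The late change was -0.72 ± 0.09 (adjusted p = 6.4e-09) and the early change -0.10 (adjusted p = 0.408), and the test of the difference gave -0.62 (adjusted p = 0.00826). Mgat1, the enzyme that starts complex N-glycans, was at 22.4, 26.1 and 25.6 CPM at 8 h and 37.2 and 41.0 CPM at 4 h (late -0.66 ± 0.08, early -0.09). Rad54l2, a helicase-like protein, was at 6.27, 6.69 and 6.62 CPM at 8 h and 9.7 and 11.1 CPM at 4 h (late -0.67 ± 0.11, early -0.02). Mtmr4, a lipid phosphatase of endosomes (-0.58), Lgr6, a receptor for R-spondins (-0.49), and Ndst1, a heparan sulfate sulfotransferase (-0.48), were next in size. In all 6 of these the 8 h libraries lay below the 4 h libraries. The 6 were picked for the size of their late change. In either direction, 43.6% of the tested genes had no overlap between 8 h and 4 h libraries. Of 30 cardiac transcription factors 1, Tbx20, was in this course, and of 21 circadian genes 2 were, Tef among them. Tbx20, a T-box factor of the heart, had 42.1, 44.6 and 44.4 CPM at 8 h against 56.3 and 55.7 CPM at 4 h (-0.36). Tef, a PAR bZIP output factor of the clock, had 99.5, 101 and 102 CPM at 8 h against 130.0 and 127 CPM at 4 h (-0.35). Late falls of any course or of none numbered 9 of the 21 circadian genes (42.9%, against 9.55% of all tested genes), and none rose. Their median was -0.22, and 5 had fallen early. Of the 30 cardiac transcription factors 8 fell late (26.7%) and 1 rose (median -0.14), again counted over any course or none. With the length and GC offset 4 of the circadian genes fell and 1 rose, and 3 of the cardiac factors fell and 1 rose. The set itself depends on the 4 h libraries, as given above. Without WT 8 h replicate 1 it held 41 genes, and in a fit of the WT groups alone 18.

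Direction changed from a rise to a fall in 134 transcripts by these calls, a number that depended on the processing. It was 11 with library size alone, 33 with ribosomal protein scaling and 36 in a fit of the WT groups alone. Without a filter on low counts it was 40, with DESeq2 71, with RLE factors 112 and with TMM without mitochondrially encoded genes 158. The transcripts in this course had a median annotated length of 4151 bases against 2920 over all tested genes. Rbfox1, a splicing regulator of heart and brain (chr16:5885355-7411526), was at 27.0, 30.3 and 27.9 CPM at 8 h and 34.9 and 35.9 CPM at 4 h, with 26.8, 29.0 and 27.5 CPM at 0 h. Levels at 8 h overlapped those at 0 h. Its late log2 change was -0.32 ± 0.08 (adjusted p = 0.00165) and its early change 0.35 (adjusted p = 2.4e-04). Rbfox2, its close relative, did the same with 80.4, 79.9 and 73.9 CPM at 8 h and 89.6 and 94.9 CPM at 4 h (late -0.24, early 0.21); its late change was -0.20 (adjusted p = 0.0579) without WT 4 h replicate 2 and -0.06 with the length and GC offset. Mbnl2, a muscleblind paralog, had 130.0, 146 and 148 CPM at 8 h and 163 and 153 CPM at 4 h, with 128 to 140.0 CPM at 0 h (late -0.16, adjusted p = 0.0252; early 0.25), a late call that was lost without WT 4 h replicate 1 (-0.12, adjusted p = 0.288) or WT 8 h replicate 1 (-0.11, adjusted p = 0.221). Serinc5, a lipid scramblase (-0.56), Nicn1, a subunit of a tubulin polyglutamylase (-0.39), and Patl1, a decapping cofactor (-0.34), had the same shape with larger falls. Pm20d1, an amidase (-0.35), Ggcx, the vitamin K-dependent carboxylase (-0.35), and Pomt1, an O-mannosyltransferase (-0.34), were the other named genes of this course. The late call of Pm20d1 was lost without WT 4 h replicate 2 (-0.24, adjusted p = 0.217), that of Ggcx without WT 4 h replicate 2 (-0.33, adjusted p = 0.0777) or WT 8 h replicate 1 (-0.26, adjusted p = 0.094), and that of Pomt1 without WT 4 h replicate 1 (-0.33, adjusted p = 0.0615).

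Transcripts of ion channels and transporters were among those that turned. Of 33 calcium-handling and channel genes 13 rose and 3 fell early, while 4 rose and 12 fell late, with medians of 0.13 and -0.10. The late shares were 12.1% higher and 36.4% lower, against 8.90 and 9.55% of all tested genes. Cacna1c, the L-type calcium channel, was at 177, 178 and 173 CPM at 8 h and 202 and 191 CPM at 4 h, with 172 to 188 CPM at 0 h (late -0.16, adjusted p = 0.0187; early 0.13). Slc8a1, the sodium-calcium exchanger, was at 435, 449 and 464 CPM at 8 h and 493 and 512 CPM at 4 h, with 447 to 470.0 CPM at 0 h (late -0.16, adjusted p = 0.00692; early 0.14). These changes were small. Without WT 4 h replicate 1 Cacna1c was at -0.12 (adjusted p = 0.246) and without WT 8 h replicate 3 at -0.15 (adjusted p = 0.0665), and Slc8a1 was at -0.13 (adjusted p = 0.124) without WT 4 h replicate 2. With the offset for length and GC, Cacna1c was at 0.03 late and not called, 5 genes of the list fell and 7 rose, and the list's median was 0.02.

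The turning genes also moved with the 4 h libraries that both intervals share. They were chosen by calls that rest on both of these libraries, so their signs in a split were nearly fixed in advance. Of the 134, 134 and 133 kept both signs when the early and late changes were taken from different 4 h libraries, but 30 and 37 kept both calls. In KO-labelled libraries, which share none with WT, 30 of the 134 fell late at any size, against 51.0% of all tested genes, and 3 were called lower.

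The opposite turn was called in fewer genes by the main fit. In all 8 genes fell early and rose late, 2 of them above the level set for naming: Senp3, a SUMO protease of the nucleolus, was at 21.5, 23.2 and 22.5 CPM at 8 h and 19.4 and 17.9 CPM at 4 h, with 21.1 to 23.0 CPM at 0 h (late 0.27, adjusted p = 0.0159; early -0.22). Snx1, a sorting nexin, was at 11.2, 12 and 9.54 CPM at 8 h and 9.01 and 8.63 CPM at 4 h (late 0.31, adjusted p = 0.0414). The late call of Senp3 was lost without WT 4 h replicate 2 (0.21, adjusted p = 0.2) or WT 8 h replicate 2 (0.24, adjusted p = 0.0548), and that of Snx1 without either 4 h library or without WT 8 h replicate 1 or 2 (adjusted p 0.104 to 0.205). Both were below 0 late with ribosomal protein scaling (-0.21 and -0.17). C3, complement component 3, was at 5.38, 4.97 and 4.33 CPM at 8 h and 3.1 and 3.54 CPM at 4 h after 7.31 to 8.95 CPM at 0 h (late 0.56, early -1.28), and its late call was lost without WT 4 h replicate 1 (0.47, adjusted p = 0.15) or WT 8 h replicate 1 (0.49, adjusted p = 0.0648). Cdca4, a cell division regulator, was at 1.83 to 2.34 CPM at 8 h and 0.861 and 0.914 CPM at 4 h after 2.13 to 2.54 CPM at 0 h (late 1.19, early -1.38). Hacl1, Gmpr2, Gm9855 and Gm49334 were the others. All 8 were chosen by calls that rest on both 4 h libraries, so their signs in a split were nearly fixed in advance. Between 1 and 2 of the 8 kept both calls when the 4 h libraries were split, and 8 kept both signs. The number also depended on the processing. It was 36 with library size alone, where 11 genes rose and then fell. With the length and GC offset it was 17, with RLE factors 13 and with DESeq2 1.

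Transcripts of the ribosome led the rises. Of 86 tested genes for cytosolic ribosomal proteins (91 listed) 79 rose late and none fell, with a median of 0.50 against -0.04 over all tested genes; when libraries were scaled to the summed counts of these same genes, the median was 0.03 and 16 rose and 7 fell, and with the length and GC offset it was 0.33 and 62 rose. Early, 32 had risen and 1 had fallen, with a median of 0.17. Together they made up 1.34, 1.22 and 1.26% of the 8 h libraries and 0.921 and 0.958% of the 4 h libraries, beside 0.885 to 0.99% at 0 h. The share at 4 h was therefore within the range of 0 h and rose afterwards.

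Rpl31, a protein of the large subunit (chr1:39367842-39371911), was at 108, 92.6 and 100.0 CPM at 8 h and 51.2 and 55.7 CPM at 4 h, beside 45.2, 47.6 and 49.7 CPM at 0 h. Its late log2 change was 0.91 ± 0.08 (adjusted p = 1.1e-09) and its early change 0.17, not called. Rpl36, also of the large subunit, was at 103, 103 and 98.9 CPM at 8 h and 52.2 and 56.3 CPM at 4 h (late 0.91 ± 0.08, early 0.06). Rpl26 was at 128, 119 and 116 CPM at 8 h and 65.5 and 73.0 CPM at 4 h (late 0.80 ± 0.07), and Rps12, of the small subunit, at 86.9, 74.4 and 89.0 CPM at 8 h and 49.1 and 52.6 CPM at 4 h (late 0.71 ± 0.07). For all 4 the 8 h libraries stood above the 4 h libraries with no overlap. The largest late rises were named only on that condition. In either direction it held for 43.6% of the tested genes. Rps29 (0.84), Rpl37 (0.83), Rps21 (0.80), Rpl38 (0.79), Rpl36a (0.79) and Rpl29 (0.76) made up most of the remaining largest late rises. By the course calls 9 ribosomal protein genes, Rpl31, Rpl36 and Rps12 among them, rose late only, and 32 rose in both intervals. The genome holds near-identical processed copies of most of these genes, and how reads with several positions were counted is not given in the sources used here, so single values are uncertain.

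Transcripts of oxidative phosphorylation rose together. Of 36 complex I subunits 31 rose and none fell (median 0.31, and -0.16 with ribosomal protein scaling, with 18 lower), and of 38 subunits of complexes III to V 30 rose and none fell (median 0.31, and -0.17 with that scaling). With the length and GC offset 14 complex I subunits rose (median 0.14), and of complexes III to V 15 rose and 2 fell (median 0.13). Ndufa2, a complex I subunit, was at 151, 146 and 138 CPM at 8 h and 92.6 and 95.5 CPM at 4 h (late 0.63 ± 0.08), and Uqcr11, of complex III, at 458, 412 and 397 CPM at 8 h and 270.0 and 282 CPM at 4 h (late 0.61 ± 0.11). With ribosomal protein scaling neither rise was called (Ndufa2 0.15, adjusted p = 0.0727; Uqcr11 0.14, adjusted p = 0.0859). Of 77 mitochondrial ribosomal protein genes 43 rose and none fell (median 0.21, and -0.26 with ribosomal protein scaling; 25 rose and 1 fell with the length and GC offset, median 0.13), led by Mrpl52 (0.61) and Mrps21 (0.48; 0.21, adjusted p = 0.0812, with the length and GC offset). The 13 messenger RNAs made by mitochondria themselves did not share in this: none was called either way (median -0.09), and 3 were called lower with the length and GC offset.

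Mitochondrial ribosomal RNAs were called higher. As for the transfer RNAs, the labels do not say which RNA the libraries selected, and counts of ribosomal RNA depend on it. The 12S rRNA, mt-Rnr1 (chrM:70-1024), was at 7752, 6906 and 7334 CPM at 8 h and 4409 and 4351 CPM at 4 h, after 2464, 2125 and 2228 CPM at 0 h. It rose late by 0.74 ± 0.05 (adjusted p = 1.2e-15) and early by 0.95. The 16S rRNA, mt-Rnr2, was at 13210, 11439 and 12188 CPM at 8 h and 7854 and 7482 CPM at 4 h (late 0.68, early 0.30, difference 0.38 with adjusted p = 0.0131). Both were still above 0 in every scaling tried in which they entered.

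Contractile genes rose as a smaller group. Of 34 sarcomere genes 18 rose late and 1 fell, with a median of 0.15 (and -0.32 with ribosomal protein scaling, where none rose and 23 fell), and 23 had risen early. Tpm1, tropomyosin, was at 8993, 8014 and 9328 CPM at 8 h and 5665 and 6395 CPM at 4 h (late 0.54 ± 0.05, adjusted p = 2.7e-11), and rose faster late (difference 0.35, adjusted p = 0.0232). Tnnt2, cardiac troponin T (chr1:135836354-135852260), was at 5683, 5272 and 5816 CPM at 8 h and 3701 and 4170 CPM at 4 h (late 0.51 ± 0.06). Myl2 and Myl3, the ventricular myosin light chains, rose late by 0.48 and 0.40, Actn2, the Z-disc actinin, by 0.25, and Lmod2, which lengthens thin filaments, by 0.18 without an early rise; with ribosomal protein scaling these were -0.00, -0.07, -0.22 and -0.29, and without WT 4 h replicate 1 Lmod2 was at 0.14 (adjusted p = 0.157). Xirp1, an actin-binding Xin protein of intercalated discs, was the sarcomere list's 1 fall, with 106, 114 and 112 CPM at 8 h and 153 and 157 CPM at 4 h (-0.48 ± 0.05, adjusted p = 7.1e-11).

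Other energy and protein-turnover groups rose with small medians that were below 0 with ribosomal protein scaling. These were 14 of 18 citric acid cycle genes with none lower (median 0.18, and -0.29 with that scaling), 15 of 30 fatty acid oxidation genes with 2 lower (0.12, and -0.36), 13 of 32 glycolytic genes with 3 lower (0.07, and -0.40), 23 of 47 proteasome subunits with none lower (0.19, and -0.28), and 21 of 37 translation factors with none lower (0.16, and -0.31). Rises made up 40.6 to 77.8% of these lists, against 8.90% of all tested genes. The falls, 6.67% of fatty acid oxidation and 9.38% of glycolytic genes, lay below the 9.55% of all tested genes. With the length and GC offset 15 proteasome subunits rose and 1 fell (median 0.08). Eif1, which selects start codons, rose most of its list, with 395, 366 and 360.0 CPM at 8 h and 251 and 252 CPM at 4 h (0.57 ± 0.05, adjusted p = 3.1e-13). Cpt1a, which admits fatty acids to mitochondria, fell with 29.3, 29.8 and 33.1 CPM at 8 h and 37.0 and 39.7 CPM at 4 h (-0.32). Of the muscle atrophy genes Fbxo32, the ligase atrogin-1, continued to fall (-0.37, with 130.0, 142 and 137 CPM at 8 h and 170.0 and 182 CPM at 4 h), as did Foxo3, the transcription factor that induces it (-0.39).

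**Figure D3:**
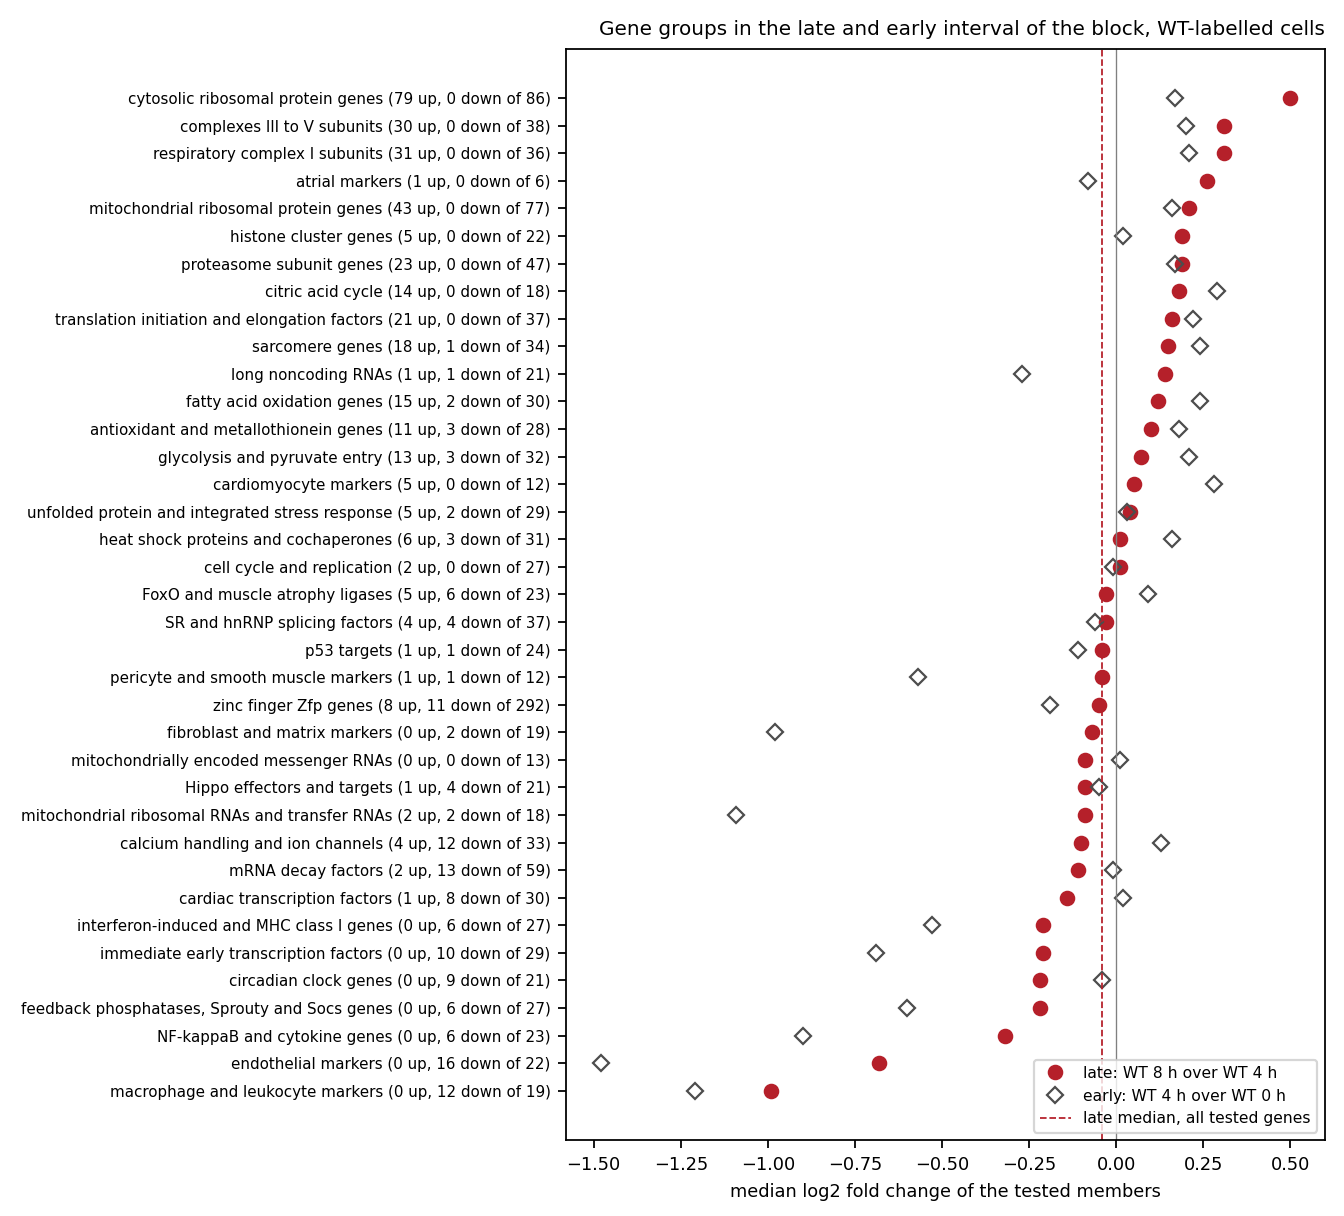
Median log2 fold change of the tested members of each gene list with at least 5 of them (rows), late as filled circles (WT 8 h over WT 4 h) and early as open diamonds (WT 4 h over WT 0 h); the counts beside each name are members called higher and lower late, and the dashed line is the late median of all tested genes, -0.04. Ribosomal and respiratory groups lie highest late (0.50 and 0.31; 0.03, -0.16 and -0.17 with ribosomal protein scaling) and endothelial and macrophage markers lowest (-0.68 and -0.99).

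Some early rises stopped at 4 h. Cpe, carboxypeptidase E, was at 207, 211 and 222 CPM at 8 h and 215 and 214 CPM at 4 h, after 144 to 159 CPM at 0 h. The late change was -0.01 against 0.50 early (difference -0.50, adjusted p = 1.4e-04). The pair that sets calcium uptake into the sarcoplasmic reticulum took this course: Atp2a2, the calcium pump, was at 14879, 15972 and 14935 CPM at 8 h and 15678 and 16020 CPM at 4 h, after 12527 to 13232 CPM at 0 h (difference -0.35, adjusted p = 0.00642). Pln, phospholamban, its inhibitor, was at 2269, 2187 and 2358 CPM at 8 h and 2393 and 2329 CPM at 4 h (difference -0.29, adjusted p = 0.0342), and with the length and GC offset it was called lower late (-0.13, adjusted p = 0.0303). Hrc, a calcium-binding protein of the same store, continued to rise, with 1156, 1187 and 1258 CPM at 8 h and 867 and 1035 CPM at 4 h (0.34, and -0.13 with ribosomal protein scaling). Actc1, cardiac actin (late -0.06), Cs, citrate synthase (late -0.12), and Hlf, a PAR bZIP factor (late -0.14), also levelled off after a rise. With ribosomal protein scaling Atp2a2 (-0.52), Pln (-0.53), Actc1 (-0.53) and Cs (-0.59) were called lower late, and Cs was called lower also without WT 8 h replicate 2 or 3 (-0.15 each).

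Late-falling and late-rising transcripts differed in length. The median annotated length was 4344 bases in the 1264 late-falling genes and 1489 in the 1178 late-rising genes, against 2920 over all tested genes. Across the 13216 tested genes with a length, Spearman's rho with the late log2 change was -0.36, and it was -0.21 with the early change and -0.23 with the late change in KO-labelled libraries; genes are not independent replicates, and all share the same libraries. In the shortest quintile (56 to 1573 bases) 23.8% of genes rose and 2.27% fell, and in the longest quintile (4877 to 123179 bases) 1.63% rose and 19.4% fell. The medians of the quintiles ran from 0.15 over 0.02, -0.04 and -0.10 to -0.15 with increasing length. Without ribosomal protein genes the shortest quintile had a median of 0.14. A fit with a smooth offset for length and GC content in each library, added after the data were seen, held the medians at -0.01 to -0.00 and called 737 genes lower and 1091 higher. RNA integrity is not given in the labels, and its part in the relation was not tested.

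**Figure D4:**
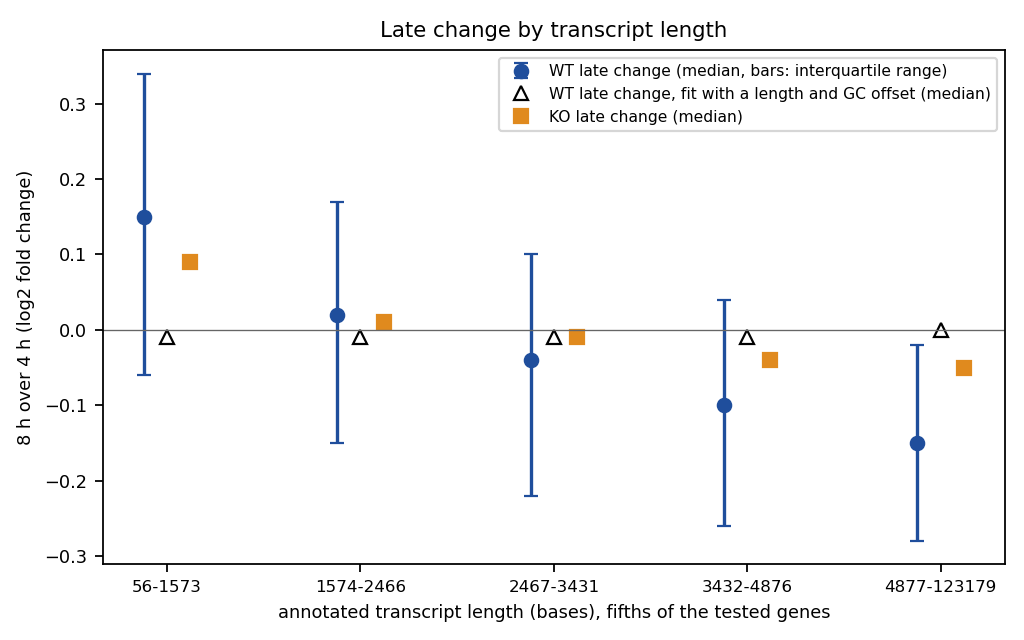
Median late log2 fold change (y axis, 8 h over 4 h) in quintiles of the tested genes by annotated transcript length in bases (x axis): circles are WT with bars for the interquartile range, triangles WT in the fit with a length and GC offset, and squares the KO-labelled libraries. WT medians go down from 0.15 to -0.15 with length, KO medians from 0.09 to -0.05, and the offset fit stays at -0.01 to -0.00.

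The late change was then set beside that of KO-labelled libraries, which share no library with WT and had 3 against 3. In KO 1138 genes were called late (8.60%), 505 lower (3.82%) and 633 higher (4.78%). Of the 1264 genes that fell late in WT, 1002 (79.3%) were below 0 in KO, where 51.0% of all tested genes were, and 225 were also called lower (17.8% of the WT falls and 44.6% of the KO falls). Of the 1178 that rose in WT, 1060 (90.0%) were above 0 in KO against 49.0% of all tested genes, and 311 were also called higher (26.4% of the WT rises and 49.1% of the KO rises). The test of WT late minus KO late change called 367 genes (2.77%), 177 higher (1.34%) and 190 lower (1.44%). These counts rest on single libraries: they were 55 and 63 without WT 4 h replicate 1, 64 and 76 without WT 8 h replicate 1, 80 and 79 without KO 4 h replicate 2, 71 and 81 without KO 4 h replicate 3, 90 and 100 without KO 8 h replicate 1, 156 and 69 without KO 8 h replicate 2, and 126 and 119 without WT 4 h replicate 2.

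Ribosomal protein transcripts made up 31 of the 177 (36.0% of the 86 tested, against 1.34% of all tested genes), and none was called lower. Their late median was 0.50 in WT and 0.16 in KO, and the median difference was 0.32 (0.02 with ribosomal protein scaling). Rpl26 was at 128, 119 and 116 CPM in WT and 108, 108 and 120.0 CPM in KO at 8 h, and at 65.5 and 73.0 CPM in WT and 100.0, 115 and 118 CPM in KO at 4 h. The difference of late changes was 0.79 ± 0.09 (adjusted p = 1.2e-07). Rpl31 was likewise at 92.6 to 108 CPM in WT and 106 to 117 CPM in KO at 8 h, but at 51.2 and 55.7 CPM in WT and 86.9 to 105 CPM in KO at 4 h (difference 0.71, adjusted p = 1.8e-04). The genotypes thus lay far apart at 4 h and close together at 8 h. Ribosomal protein genes held 0.921 and 0.958% of the WT and 1.14 to 1.18% of the KO libraries at 4 h, and 1.22 to 1.34% of the WT and 1.18 to 1.31% of the KO libraries at 8 h.

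The sarcomere list had 6 genes with a higher and 1 with a lower late change in WT than in KO. These were 17.6 and 2.94%, against 1.34 and 1.44% of all tested genes. Tnnt2 (difference 0.34), Lmod2 (0.30) and Tpm1 (0.28) were higher and Actc1 (-0.27) lower, while with ribosomal protein scaling Tnnt2 was at 0.03 (adjusted p = 0.817) and Lmod2 and Tpm1 at -0.01 and -0.02. With the length and GC offset the differences of Tnnt2 (0.27, adjusted p = 0.277) and Actc1 (-0.32, adjusted p = 0.0833) were not called. Tnnt2 was at 5272 to 5816 CPM in WT and 6101 to 6787 CPM in KO at 8 h, and at 3701 and 4170 CPM in WT and 5254 to 6150 CPM in KO at 4 h. Of translation factors 3 (8.11%) and of proteasome subunits 6 (12.8%) were higher, Eif1 (0.46) and Psma7 (0.36) among them, and 1 proteasome gene was lower (2.13%). With ribosomal protein scaling the differences of Eif1 (0.15, adjusted p = 0.207) and Psma7 (0.05, adjusted p = 0.771) were not called. Endothelial markers had late medians of -0.68 in WT and -0.78 in KO, and none of 22 was called different.

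Nme2, a nucleoside diphosphate kinase (chr11:93949814-93956259), had the most negative difference of the named genes, -0.79 ± 0.13 (adjusted p = 7.6e-05). It was at 17.2, 15.0 and 16.5 CPM in WT and 16.1, 16.5 and 19.6 CPM in KO at 8 h, and at 21.9 and 22.3 CPM in WT and 14.8, 13.1 and 13.1 CPM in KO at 4 h. It fell late in WT (-0.45) and rose in KO (0.35). Its neighbour Nme1 is a near-copy, so the count is uncertain. Rad54l2 fell late in WT (-0.67) and was at -0.03 in KO (difference -0.64, adjusted p = 0.0169). KO libraries were at 6.42 to 6.96 CPM at 4 h, where the WT 8 h libraries lay, and an early change in KO was not tested. Lyz2 fell by -0.97 in WT and was at -0.28 in KO (difference -0.69, adjusted p = 0.0185), a call lost without WT 4 h replicate 1 (adjusted p = 0.168), WT 8 h replicate 1 (0.0621) or KO 8 h replicate 1 (0.137). Zfp36 fell by -0.55 in WT and was at -0.04 in KO (difference -0.51, adjusted p = 0.00856). Its level was 14.8, 15.7 and 12.9 CPM in WT and 15.3, 14.2 and 14.6 CPM in KO at 8 h, and 21.7 and 20.8 CPM in WT and 15.8, 15.1 and 14.6 CPM in KO at 4 h. Rbfox1 (-0.41), Rbfox2 (-0.32), Patl1 (-0.43), Serinc5 (-0.64) and Mbnl2 (-0.28) also had a more negative late change in WT than in KO. The differences of Nme2, Serinc5, Rpl26, Rpl31 and Eif1 were called in all 11 fits that left out 1 of the 4 h or 8 h libraries. Those of Zfp36 (10), Tnnt2 (9), Rad54l2 (9), Rbfox2 (8), Tpm1 (6), Rbfox1 (5), Mbnl2 (5), Actc1 (5), Psma7 (5) and Patl1 (4) were called in the number of these fits given in brackets.

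**Figure D5:**
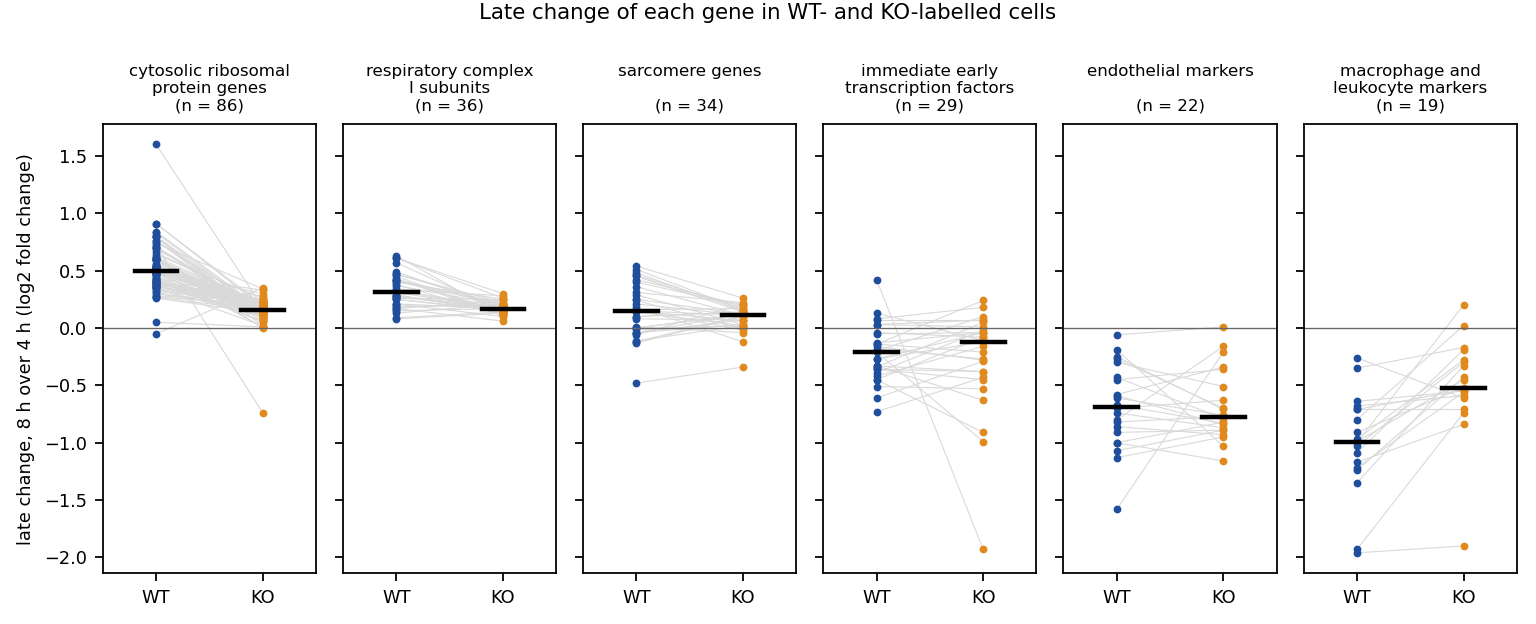
Late log2 fold change (8 h over 4 h, y axis) of each tested member of 6 gene lists in WT (left, blue) and KO-labelled cells (right, orange), joined by a grey line per gene, with black bars at the medians. Ribosomal protein genes have medians of 0.50 in WT and 0.16 in KO (0.03 in WT with ribosomal protein scaling), macrophage markers -0.99 and -0.52, and endothelial markers -0.68 and -0.78; complex I and sarcomere medians in WT turn to -0.16 and -0.32 with that scaling.

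Mbnl1 itself had 86.7, 85.6 and 88.0 CPM at 8 h and 92.9 and 91.3 CPM at 4 h in WT, and its late change of -0.09 ± 0.05 did not pass the test (adjusted p = 0.294; difference from KO -0.11, adjusted p = 0.476). Esr1, the oestrogen receptor gene, was at 2265 to 2364 CPM in KO-labelled libraries at 8 h and 2252 to 2363 CPM at 4 h. In WT it was at 0.414, 0.457 and 3.34 CPM at 8 h and 0.115 and 0.0 CPM at 4 h, so WT 8 h replicate 3 held several times the level of the other WT libraries. The WT late change did not pass the test (adjusted p = 0.0533). It was called higher when WT 8 h replicate 1, 2 or 3 was left out (4.87, 4.88 and 2.78 on the log2 scale, with adjusted p of 0.0261, 0.023 and 0.00869), with DESeq2 (adjusted p = 0.00192), with a CPM filter (0.0493) and with ribosomal protein scaling (0.037).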

How the data were processed

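Raw counts per Ensembl gene, as deposited by the authors, were used; a second deposited table, of ratios to baseline, was not. Tools named in the submitters' processing notes are STAR, featureCounts, limma and DESeq2, and builds GRCm38 and mm10. Versions, strand setting and the handling of reads with several positions are not given in those notes or the labels. The table held 55486 genes, 55226 with a symbol in GENCODE M21, and 1 row that names no gene (0.00735 to 0.0155% of counts), which was left out.

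Counts were fitted with edgeR 4.0.16 in R 4.3.3: filterByExpr kept 13229 genes (99.9% of counts), TMM set the library scale, and 1 robust quasi-likelihood model of all 6 groups was used (biological coefficient of variation 5.29%). Contrasts were WT 8 h minus WT 4 h (late), WT 4 h minus WT 0 h (early), late minus early, KO late, and WT late minus KO late. Benjamini-Hochberg adjustment ran over the 13229 genes, with calls at 0.05. Standard errors are the log2 change divided by the square root of F.

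Named genes were the 12 largest late rises and falls, 6 per course, and the 4 highest and 4 lowest against KO, each with a mean log2 CPM of at least 3, an adjusted p under 0.05 (for courses, the calls that define them) and no predicted or clone name; for the largest late changes, 8 h and 4 h libraries did not overlap. The largest called rise and fall of each gene list, at any level, and Mbnl1, Mbnl2 and Esr1 were added. Cdh5, Csf1r, C1qb, Sparc, Erg, Fabp4, Vwf, Fosl2, Atf3, Nr4a1, Junb, Myc, Zfp36, Zfp36l1, Gsn, Cish, Dusp5, Id3, Cacna1c, Slc8a1, Rbfox2, Tbx20, Tef, Fbxo32, Myl2, Actn2, Actc1, Lmod2, Atp2a2, Pln, Hrc, Cs, mt-Rnr2, mt-Ti, mt-Tq, mt-Ty, C3, Cdca4, Hacl1, Gmpr2, Gm9855 and Gm49334 were named after their values were seen. Results of 2 genes are not reported here. Members, lists and tests were chosen with earlier results of these data known. The 16 same-group library pairs had a median squared difference of 1.26 to 1.93 times counting error, so none was a copy. Residuals of 40 same-number pairs correlated at -0.191 to 0.175, and those of the 7 within WT at -0.174 to 0.158. The first range includes pairs across genotypes, and neither was set beside pairs of different numbers. The check therefore does not exclude pairing within a genotype. Replicate numbers were not used as pairs.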

Additional observations from a re-analysis of the deposited data

Results flagged for a closer look

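No WT or KO group has 4 or more libraries, so single libraries were not screened as far from their group. Named genes whose late change differed between WT and KO-labelled cells, by edgeR's test of the difference itself with an adjusted p under 0.05, are given here as WT minus KO on the log2 scale. Of these 34 differences, 11 were called in all 11 fits that left out 1 of the 4 h or 8 h libraries of either genotype, and 23 lost the call in 1 or more of them, with no change of sign.

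Ribosomal protein genes were higher in WT: Rpl26 0.79, Rpl36 0.73, Rpl31 0.71, Rpl36a 0.70 and Rps12 0.64. In KO-labelled libraries their late changes were 0.01, 0.18, 0.20, 0.09 and 0.08. Rpl36a lost the call without WT 4 h replicate 1, WT 8 h replicate 1 or 3, KO 4 h replicate 2, or any KO 8 h library (adjusted p 0.0553 to 0.089). Respiratory, contractile and proteostasis genes on this side were Ndufa2 0.51, Eif1 0.46, Hspb2 0.45, Psma7 0.36, Tnnt2 0.34, Lmod2 0.30, Tpm1 0.28, Ankrd1 0.25 and Tpi1 0.24. The remaining ones were Cdca4 1.41, Snhg8 1.11, Hmgn5 0.55, Use1 0.53 and Commd1 0.47, of which Cdca4 and Snhg8 were at low counts. In WT the late rise of Snhg8 was not called without WT 4 h replicate 1 (0.77, adjusted p = 0.0956), nor that of Hspb2 without WT 4 h replicate 2 (0.28, adjusted p = 0.0976).

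More negative in WT were Nme2 -0.79, Lyz2 -0.69, Pomt1 -0.66, Serinc5 -0.64, Rad54l2 -0.64, Nicn1 -0.51 and Zfp36 -0.51. Of these Pomt1 and Nme2 were called higher late in KO (0.32 and 0.35). Smaller differences were Patl1 -0.43, Rbfox1 -0.41, Btg2 -0.39, Abcc9 -0.37, Rbfox2 -0.32, Mbnl2 -0.28, Cs -0.28 and Actc1 -0.27. Abcc9, a potassium channel subunit listed among pericyte markers and also used by cardiomyocytes, was at 410.0, 470.0 and 501 CPM at 8 h and 505 and 536 CPM at 4 h in WT. Its late call in WT was lost without WT 4 h replicate 2 (-0.13, adjusted p = 0.249) or WT 8 h replicate 1 (-0.10, adjusted p = 0.207).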

How the results depend on the processing

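The settings tried were library size alone, RLE factors, scaling to ribosomal protein counts, TMM without mitochondrially encoded genes, no filter on low counts, a CPM filter, DESeq2 1.42.0, fits of fewer groups, a replicate block, different 4 h libraries for early and late change, leaving out each library, and a length and GC offset chosen after seeing the data. Of single-gene values and list medians, 2716 kept direction and call, 295 lost the call, 33 gained one, 51 list medians moved and 28 single-gene values changed sign; values that DESeq2 gives without an adjusted p are left out. The scaling matters most, since shares carry no absolute level: scaling to ribosomal protein counts moved the late median of all genes by -0.47 and library size alone by -0.04. The higher share of late calls was 48.2%, 55.8% with RLE factors, 36.3% with library size alone, 0.394% with ribosomal protein scaling, 46.5% with TMM without mitochondrial genes and 59.7% with the offset. Single-replicate loss of the 4 h group leaves 1 library, which is assumed to vary like the other groups. The causes of these shifts were not tested.

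Counts that moved by over 1.5 times follow. DESeq2 gave 739 late lower, 73 late minus early higher, 211 continued falls, 20 levelled-off falls, 1 fall then rise and 71 rises then falls. RLE gave 13 falls then rises. WT groups alone gave 826 late lower, 1299 early higher, 73 late minus early lower, 13 falls then rises, 36 rises then falls, 31 levelled-off rises and 18 late falls. Without a filter there were 778 late lower, 1282 early higher, 269 and 141 late minus early higher and lower, 277 WT minus KO higher, 40 rises then falls, 74 levelled-off rises, 27 late falls and 82 late rises. Library size alone gave 119 early higher, 3186 early lower, 332 and 20 late minus early higher and lower, 34 WT minus KO lower, 681 continued falls, 151 levelled-off falls, 36 falls then rises, 11 rises then falls, 27 continued rises, 1 levelled-off rise, 9 late falls and 109 late rises. Ribosomal protein scaling gave 37 late higher and 9344 lower, 44 early higher and 3046 lower, 102 and 2632 late minus early, 25 and 3997 WT minus KO, 2307 continued falls, 39 levelled-off falls, 33 rises then falls, 3 continued rises, 3 levelled-off rises, 2477 late falls and 4 late rises. The offset gave 737 late lower, 225 continued falls, 17 falls then rises and 46 late falls. The early change from 4 h replicate 1 and late from replicate 2 gave 201 continued falls, 2 falls then rises, 32 rises then falls and 302 continued rises, and the reverse gave 236, 2, 39 and 355. With the replicate block, late calls were 1094 higher and 1145 lower, late falls 47 and late rises 15. The labels do not say what libraries of equal replicate number share.

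Leaving out 1 library gave 730 to 1185 late higher, 710 to 1345 late lower, 1387 to 2151 early higher, 1188 to 1682 early lower, 66 to 200 late minus early higher, 81 to 482 lower, 55 to 236 WT minus KO higher, 63 to 234 lower, 144 to 349 continued falls, 231 to 622 continued rises, 6 to 11 falls then rises, 9 to 101 late falls, 2 to 46 late rises, 35 to 106 levelled-off falls, 36 to 233 levelled-off rises and 63 to 155 rises then falls.

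Late changes that turned with ribosomal protein scaling were Snx1 -0.17, Senp3 -0.21, Myl3 -0.07, Mrps11 -0.06, Des -0.32, Nppa -0.21, Ccng1 -0.30, Exosc8 -0.04, Hnrnpab -0.17, Foxo4 -0.19, Map1lc3a -0.13, Mthfd2 -0.11, Hspb2 -0.12, Acot13 -0.08, Tpi1 -0.04, Sdhb -0.10, Pcna -0.22, Ankrd1 -0.11, Psma7 -0.05, Myl2 -0.00, Actn2 -0.22, Lmod2 -0.29 and Hrc -0.13. WT minus KO differences that turned with that scaling were Tpm1 -0.02, Tpi1 -0.07, Ankrd1 -0.06 and Lmod2 -0.01. With the length and GC offset Cacna1c turned to 0.03.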

Other observations

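Stress and defence transcripts were not described above. Hspa1a, the inducible heat shock protein Hsp70, was at 4.44, 4.35 and 4.16 CPM at 8 h and 7.06 and 7.09 CPM at 4 h, after 13.2 to 14.7 CPM at 0 h (late -0.71, early -0.99). It was the largest of 3 late falls among 31 heat shock and cochaperone genes (9.68%, against 9.55% of all tested genes). Of the 31, 6 rose (19.4%, against 8.90% of all tested genes), and the median was 0.01. Among 28 antioxidant and metallothionein genes 11 rose (39.3%) and 3 fell (10.7%) late (median 0.10, and -0.38 with ribosomal protein scaling). With the length and GC offset 6 rose. Gpx4, which reduces lipid peroxides, was at 488, 476 and 457 CPM at 8 h and 349 and 320.0 CPM at 4 h (0.50). Srxn1, sulfiredoxin, was at 17.1, 16.3 and 17.2 CPM at 8 h and 22.6 and 22.3 CPM at 4 h (-0.41).

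Angptl4, a secreted inhibitor of lipoprotein lipase, was at 3.85, 3.2 and 4.16 CPM at 8 h and 7.18 and 7.37 CPM at 4 h, after 18.7 to 20.7 CPM at 0 h (late -0.96, adjusted p = 2.0e-07). Mob1b, a Hippo pathway scaffold, was at 10.7, 10.2 and 10.8 CPM at 8 h and 18.3 and 18.1 CPM at 4 h, after 24.8 to 26.3 CPM at 0 h (late -0.78, early -0.49). Kcna5, a potassium channel, was at 0.355 to 0.82 CPM at 8 h and 1.14 and 1.66 CPM at 4 h (late -1.21), a call that was lost without WT 4 h replicate 1 (-0.92, adjusted p = 0.166) or WT 8 h replicate 1 (-0.95, adjusted p = 0.0533). Of 292 tested zinc finger Zfp genes 8 rose and 11 fell late (2.74 and 3.77%, against 8.90 and 9.55% of all tested genes), and 4 rose and 52 fell early, where 15.9 and 12.6% of all tested genes did. With the length and GC offset 10 of them rose and 4 fell late. Of 22 histone cluster genes 5 rose (22.7%, against 8.90% of all tested genes) and none fell late, and 3 rose with that offset.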
